A study of Mus musculus with 4 samples.

Results

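Transcripts of 10 genes that build the axes and the synaptonemal complex of meiotic chromosomes were examined in the testicular transcriptome of mice with a mutated *Nef-sp* gene, which encodes a testis-specific exoribonuclease. The genes were listed by name: *Sycp1*, *Sycp2*, *Sycp3*, *Syce1*, *Syce2*, *Tex12*, *Smc1b*, *Stag3*, *Rec8* and *Hormad1*. Exon sense reads were counted for 9 of them among 12415 genes, and intron sense reads for 8 of them among 6616 genes, in a table of 25745 features in 10 annotation categories. *Syce1* was not analysed here. Total testicular RNA came from adult C57Bl/6J males at P60, with 2 libraries from homozygous mutants (Nef-sp-/-) and 2 from heterozygous controls (Nef-sp+/-). The controls therefore also carried the mutant allele, and a wild-type group was not analysed here. The allele is an out-of-frame deletion made with Cas9 nickase and a pair of guide RNAs, and the labels describe a single mutant line. The labels do not say whether replicates were separate animals, so p-values measure only the spread between these libraries. Ribosomal RNA had been removed, and the libraries kept the strand of each RNA and were sequenced for 50 cycles.

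In meiotic prophase each chromosome is folded into loops along a protein axis, and a cohesin complex with meiotic subunits forms the base of that axis. *Smc1b* encodes an SMC subunit of it, *Rec8* a kleisin and *Stag3* the subunit that binds the kleisin. *Sycp2* and *Sycp3* encode axis proteins that become the lateral elements of the synaptonemal complex, and *Hormad1* encodes a HORMA-domain protein found on axes that have not yet synapsed. *Sycp1* encodes the transverse filament that bridges the paired axes, and *Syce1*, *Syce2* and *Tex12* encode proteins of the central element. In the testis these genes are known for their expression in spermatocytes, and loss of most of them in mice arrests spermatogenesis.

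The table gave between 20659865 and 34442517 reads per library, with the largest number in Nef-sp+/- replicate 2. The targeted gene, annotated as *2610020H08Rik*, had 1843 and 1693 normalized exon counts in Nef-sp+/- against 407 and 497 in Nef-sp-/- libraries, or 25.6% of the control mean (log2 fold change −1.97, Benjamini-Hochberg adjusted p = 4.1e-06 by the quasi-likelihood test of edgeR), so the libraries matched their labels. Marker genes of 7 testicular cell types were detected, and 0 of 39 tested passed the threshold of an adjusted p of 0.05, against 0.00932% of all genes. At an unadjusted p below 0.05 in the same test, 2 of 8 spermatid and 2 of 6 Leydig markers were counted. No marker of the other lists was, against 4.8% of all genes. Summed markers of spermatocytes that are not among the 10 genes lay between 202495 and 204987 normalized counts in Nef-sp+/- and from 204671 to 209603 in Nef-sp-/- libraries. The sums for spermatogonia and Sertoli cells also overlapped between genotypes. Summed spermatid markers were 321834 in Nef-sp+/- replicate 1, which stood apart from the other libraries (390400 to 399820), and 6 of these 8 markers had a log2 fold change above 0. Those for Leydig cells (17387 to 17515 against 13959 to 16565), peritubular myoid cells (1266 to 1305 against 1114 to 1229) and macrophages (415 to 430 against 382 to 392) were lower in both Nef-sp-/- libraries. The members of these lists did not all follow their sums: 4 of the 6 tested Leydig markers had a log2 fold change above 0 (median 0.09, range −0.35 to 0.18), as did 1 of the 3 tested macrophage markers and 0 of the 3 tested myoid markers. For comparison, 18.1% of all tested genes were lower in both Nef-sp-/- libraries than in both controls, and 16.4% were higher. No marker with an entry was at 0 in all libraries, and the lowest were *Fshr* (0 to 3.55), *Zbtb16* (0.70 to 2.37) and *Cd14* (0 to 2.37). In bulk tissue, fewer cells of a type and less RNA per cell cannot be told apart.

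The promoters of these genes were compared first, since they show a sequence that several of the genes share. The windows run from 250 bases before to 50 bases after each start in RefSeq on GRCm38.p6, and all 10 genes had one. The palindrome CACGTG, the E-box core known to be bound by MYC and MAX family proteins, was found in the windows of 5 genes (*Sycp1*, *Sycp3*, *Tex12*, *Stag3* and *Hormad1*), against 7.24% of all 27025 promoters. The 180 bases before the start are given 5′ to 3′ on the strand of the gene for those 5 and for *Rec8*, the gene whose libraries separated by genotype, with CACGTG in capitals.
Sycp1: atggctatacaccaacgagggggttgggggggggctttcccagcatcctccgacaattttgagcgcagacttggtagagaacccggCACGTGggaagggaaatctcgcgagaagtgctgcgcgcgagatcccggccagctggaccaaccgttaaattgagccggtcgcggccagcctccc
Sycp3: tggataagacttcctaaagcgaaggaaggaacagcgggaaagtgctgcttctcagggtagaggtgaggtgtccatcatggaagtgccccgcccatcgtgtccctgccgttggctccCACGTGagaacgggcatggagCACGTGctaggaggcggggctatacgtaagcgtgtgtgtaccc
Tex12: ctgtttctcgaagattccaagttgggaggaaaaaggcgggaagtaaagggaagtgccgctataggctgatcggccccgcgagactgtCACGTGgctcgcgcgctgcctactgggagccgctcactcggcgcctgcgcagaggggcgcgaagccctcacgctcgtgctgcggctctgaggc
Stag3: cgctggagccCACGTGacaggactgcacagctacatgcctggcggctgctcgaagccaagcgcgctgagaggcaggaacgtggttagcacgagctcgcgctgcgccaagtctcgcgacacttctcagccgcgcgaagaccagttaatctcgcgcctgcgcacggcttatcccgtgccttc
Hormad1: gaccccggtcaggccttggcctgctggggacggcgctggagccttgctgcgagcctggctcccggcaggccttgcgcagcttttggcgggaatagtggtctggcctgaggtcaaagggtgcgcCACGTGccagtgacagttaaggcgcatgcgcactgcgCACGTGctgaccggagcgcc
Rec8: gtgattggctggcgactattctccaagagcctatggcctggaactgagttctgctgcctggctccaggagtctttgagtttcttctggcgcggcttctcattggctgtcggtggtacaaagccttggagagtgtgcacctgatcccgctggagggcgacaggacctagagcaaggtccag

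These stretches lie at chr3:102936101-102936280 on the minus strand for *Sycp1*, chr10:88459407-88459586 on the plus strand for *Sycp3* and chr9:50561269-50561448 on the minus strand for *Tex12*. Those of *Stag3*, *Hormad1* and *Rec8* lie on the plus strand at chr5:138280329-138280508, chr3:95559497-95559676 and chr14:55617986-55618165. *Sycp3* and *Hormad1* hold the palindrome at 2 positions each, 64 and 43 bases before the start of *Sycp3* and 57 and 20 bases before that of *Hormad1*. In *Sycp1*, *Tex12* and *Stag3* it begins 94, 93 and 170 bases before the start. *Syce2* has another listed start whose window holds CACGTG 88 bases upstream, whereas the window of its first listed start does not. The other motifs searched on both strands were CCTCAG, a core known for STRA8 (5 genes, *Sycp1*, *Syce1*, *Tex12*, *Smc1b* and *Hormad1*, against 26.6% of all promoters), TCCCGCC, an E2F-type site (2 genes, *Tex12* and *Hormad1*, against 11.4%), AACTGCC, which holds a MYB core (0 genes against 4.14%), and TGACGT, the core of the cyclic AMP response element (0 genes against 7.64%). Such matches describe the letters of these windows only, and binding was not measured.

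The level of each gene was first described over all 4 libraries, as normalized counts per kb of merged exon in mm9. *Sycp3*, with 8 merged exons on chromosome 10, had the highest level at 2642 ± 95.3 (SD, n = 4). The cohesin genes *Smc1b* (2329 ± 50.3) and *Stag3* (2319 ± 36.9) followed and overlapped over the libraries. *Sycp2* (1857 ± 80.1), *Hormad1* (1740 ± 123) and *Sycp1* (1592 ± 74.6) came next, and *Hormad1* overlapped with both of its neighbors in this order. The central element gene *Syce2* stood lower at 823 ± 92.3, followed by *Rec8* at 376 ± 35.9 and *Tex12* at 308 ± 22.5. With this length, these lowest 3 genes did not overlap with each other or with the genes above them. Overlap was not examined with the other lengths below. The highest level was 8.58 times the lowest, and all 9 genes lay above the median of 131 per kb over 9987 genes, with between 67% and 94.9% of genes below them. The levels depend on the gene length used. Length was also counted as 50-base windows within a single exon. The levels of *Sycp1* (3023), *Hormad1* (2988), *Sycp2* (2877) and *Tex12* (503) then came out more than 1.5 times higher. *Sycp1* moved ahead of *Hormad1* and *Sycp2*, and *Hormad1* ahead of *Sycp2*. With the longest annotated transcript as the length, *Stag3* (2848) moved ahead of *Smc1b* (2329) and *Hormad1* (1991) ahead of *Sycp2* (1938).

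**Figure D1:**
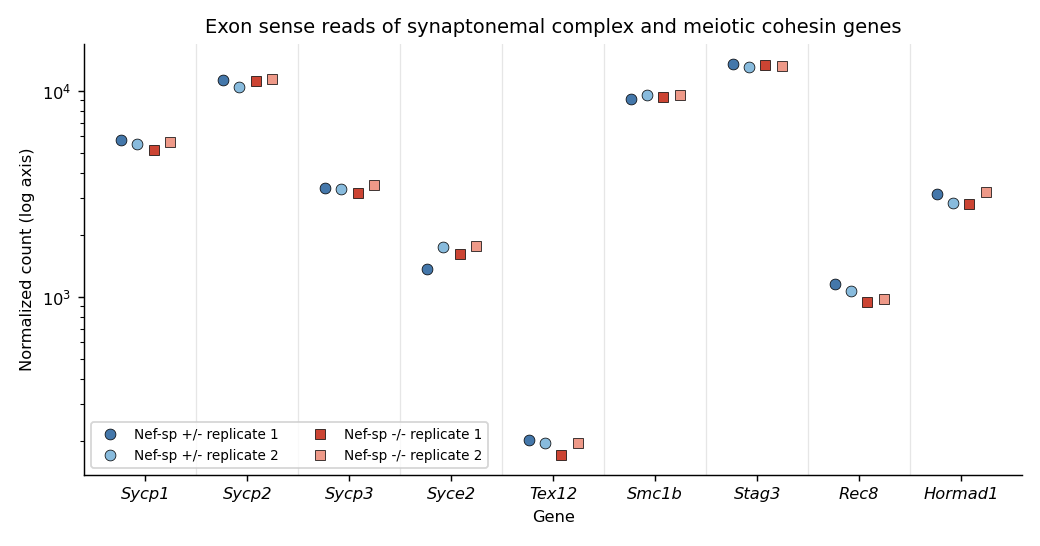
Normalized gene exon sense counts of the 9 genes on a log axis, with circles for Nef-sp+/- and squares for Nef-sp-/- libraries and 1 point per library. The points of both genotypes overlap for 8 genes, while for *Rec8* both squares (941 and 970) lie below both circles (1158 and 1068). Over all tested genes, 18.1% had both Nef-sp-/- libraries lower and 16.4% had both higher.

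To ask whether loss of *Nef-sp* altered these transcripts, exon sense counts were compared between genotypes. None of the 9 genes passed an adjusted p of 0.05. Only *Rec8* had libraries that did not overlap between genotypes, with both Nef-sp-/- libraries lower. Of all tested genes, 18.1% were lower and 16.4% higher in both Nef-sp-/- libraries, so such a pattern is common. Over all 10728 genes tested, 0.00932% passed the threshold, which is *Nef-sp* itself. At an unadjusted p below 0.05, 1 of the 9 genes was counted, against 4.8% of all genes, and DESeq2 also called 0 of them. Of the 9 genes, 4 had a log2 fold change above 0 and 5 below, with a median of −0.01 against −0.00 over all genes. The absolute change had a median of 0.05 for the 9 genes and 0.07 for all genes. Each gene is given by its normalized count in Nef-sp+/- replicates 1 and 2, followed by Nef-sp-/- replicates 1 and 2, and by the log2 fold change (Nef-sp-/- over control) with its SE and 95% interval.

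Among the cohesin subunits, *Rec8* (ENSMUSG00000002324, mm9 chromosome 14, 56236874 to 56244232, 17 merged exons) is a kleisin that closes the meiotic cohesin ring. Its counts were 1158 and 1068 in Nef-sp+/- against 941 and 970 in Nef-sp-/- testes. Both Nef-sp-/- libraries were below both Nef-sp+/- libraries, a pattern found for 18.1% of all genes, while 16.4% showed the opposite order. The Nef-sp-/- mean was 85.9% of the control mean, with a log2 fold change of −0.22 (SE 0.069, −0.37 to −0.06). Its unadjusted p of 0.00975 ranked 106 of 10728 genes, and its adjusted p was 0.954 in edgeR's quasi-likelihood test, so the call was not made. The change lay between −0.28 and −0.16 when any 1 library was omitted, and the smallest adjusted p among these edgeR fits was 0.105. Nef-sp+/- replicate 1, with the highest *Rec8* count, was also the library with the lowest spermatid sum (321834), and without it the change of *Rec8* was −0.16. The Leydig, myoid and macrophage sums were lower in Nef-sp-/- as well, although most Leydig markers were not. The part of these markers in the result was not tested.

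*Smc1b* (ENSMUSG00000022432, chromosome 15, 84895121 to 84962387), which partners SMC3 in meiotic cohesin, had counts of 9149, 9543, 9332 and 9589. The libraries of both genotypes overlapped, and the log2 fold change was 0.02 (SE 0.0588, −0.11 to 0.15). *Stag3* (ENSMUSG00000036928, chromosome 5, 138721468 to 138753621), required for stable meiotic cohesin, had 13562, 13093, 13363 and 13164 counts, the highest of all 9 genes. Both Nef-sp-/- values fell between those of the controls, with a log2 fold change of −0.01 (SE 0.0583, −0.14 to 0.12). For *Smc1b* and *Stag3*, the intervals lay within 0.15 in either direction. They measure only the spread between these libraries and do not exclude a larger change between animals. The adjusted p in edgeR's test was 0.99 for *Smc1b* and 0.992 for *Stag3*.

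Of the axis genes, *Sycp2* (ENSMUSG00000060445, chromosome 2, 178079998 to 178142390) had counts of 11339, 10383, 11152 and 11438. The lowest value came from Nef-sp+/- replicate 2 and the other three were close together. Its log2 fold change was 0.06 (SE 0.0637, −0.08 to 0.20). *Sycp3* (ENSMUSG00000020059, chromosome 10, 87922314 to 87935981), the partner of *Sycp2* in the lateral element, had 3379, 3320, 3186 and 3474 counts. The Nef-sp-/- libraries held both its lowest and its highest value, and the log2 fold change was −0.01 (SE 0.0627, −0.15 to 0.13). *Hormad1* (ENSMUSG00000028109, chromosome 3, 95363599 to 95391593) had 3155, 2851, 2805 and 3226 counts, with the same arrangement. Its log2 fold change was 0.01 (SE 0.0781, −0.16 to 0.18). Of the 50-base windows within *Hormad1* exons, 32.8% occur more than once in mm9, and how reads with several matches were assigned is not given in the sources used here, so its count is less certain. This share was 3.4% for *Sycp1*, 0.888% for *Stag3* and 0% for the other genes.

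Of the genes for the central region, *Sycp1* (ENSMUSG00000027855, chromosome 3, 102622422 to 102740023) had counts of 5740, 5505, 5159 and 5668. The lowest value was in Nef-sp-/- replicate 1, the other Nef-sp-/- library lay between the controls, and the log2 fold change was −0.05 (SE 0.0648, −0.20 to 0.09). *Tex12* (ENSMUSG00000032065, chromosome 9, 50365253 to 50369373), whose product forms fibers with that of *Syce2*, had the fewest reads, with counts of 201, 194, 170 and 195. Here too Nef-sp-/- replicate 1 was lowest and the other Nef-sp-/- library lay between the controls. The log2 fold change was −0.11 with the widest interval of the 9 genes (SE 0.117, −0.37 to 0.15).

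*Syce2* (ENSMUSG00000003824, chromosome 8, 87396010 to 87412120) was the least stable of the 9 genes, with counts of 1368, 1734, 1609 and 1770. Nef-sp+/- replicate 1 stood apart from the other libraries, as in its spermatid sum, and whether these are related was not tested. The control replicates of *Syce2* differed by 0.34 on the log2 scale. The log2 fold change was 0.11 (SE 0.0993, −0.10 to 0.33). Without Nef-sp+/- replicate 2, the change was 0.30 and passed the threshold (adjusted p = 0.0432 in edgeR's quasi-likelihood test), and without Nef-sp+/- replicate 1 it was −0.04. Without Nef-sp+/- replicate 2, 252 of 10878 genes passed in total, against 1 with all libraries. With any 1 library omitted, *Rec8* and *Tex12* kept the sign of their exon change in all 4 fits, and the other 7 genes changed sign in at least 1. The adjusted p with all libraries was 0.956 in edgeR's test for *Sycp1*, *Sycp2*, *Syce2* and *Tex12*, 0.992 for *Sycp3* and 0.993 for *Hormad1*.

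**Figure D2:**
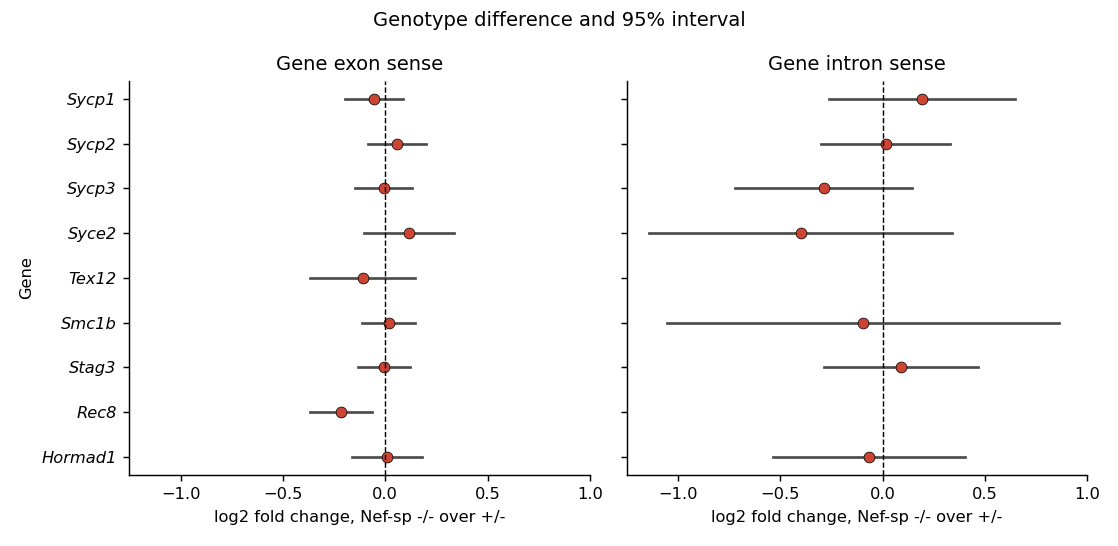
Log2 fold changes (Nef-sp-/- over control) with 95% intervals (bars) for gene exon sense (left) and gene intron sense counts (right), with 0 dashed. In exons the interval of *Rec8* alone lies to one side of 0 (−0.37 to −0.06), and in introns all 7 intervals include 0 and are wider.

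**Figure D3:**
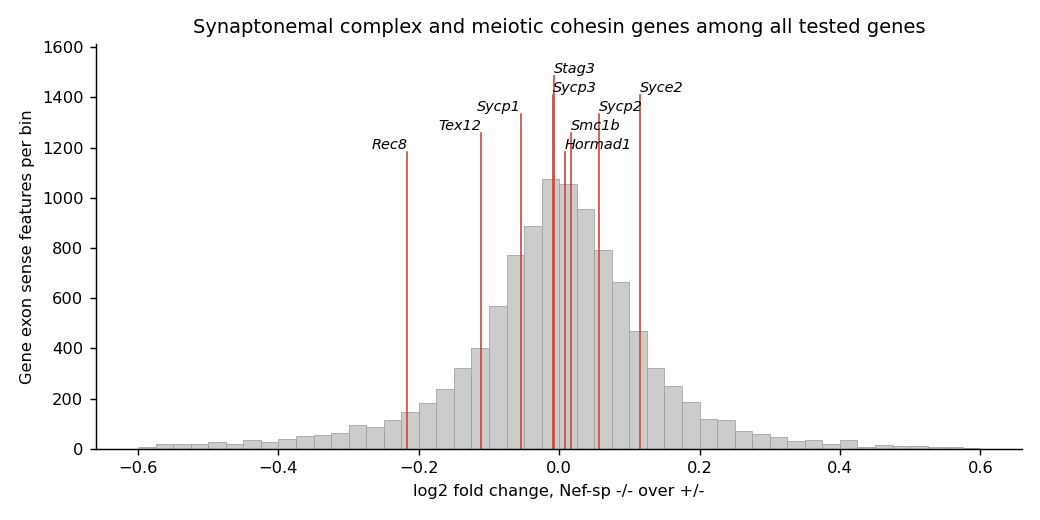
Histogram of the log2 fold change over the tested gene exon sense features within ±0.6 (10572 of 10728), with a red line at the value of each of the 9 genes. The lines run from −0.22 (*Rec8*) to 0.11 (*Syce2*), within the bulk of all genes.

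The genes were also compared by their pattern over the libraries, as log2 normalized counts centered on the mean of each gene. Their mean was 0.02 and 0.00 in Nef-sp+/- against −0.06 and 0.04 in Nef-sp-/- libraries, so the Nef-sp-/- replicates differed more than the genotypes did. *Sycp3* followed this mean most closely, at a root mean square distance of 0.0109, while *Syce2* (0.15) and *Rec8* (0.106) were the farthest from it. Of 8190 other genes, the nearest to this mean over 4 libraries were *Tbc1d5* (0.00195), *Ero1lb* (0.00393) and *Stambp* (0.00451). The pattern itself is close to flat, and nearness to it says little about a gene.

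Next, *Smc1b*, *Stag3*, *Rec8* and *Hormad1* were each set beside their paralogs, as a share of the summed level per kb. These paralogs also act outside meiosis, except for *Hormad2*. *Smc1b* made up between 99.6% and 99.7% of *Smc1b* plus *Smc1a* in every library. *Stag3* made up 89.3% and 89.3% of *Stag3*, *Stag1* and *Stag2* in Nef-sp+/- against 90.0% and 89.5% in Nef-sp-/- testes. *Hormad1* made up 96.6% and 96.3% of the sum with *Hormad2*, itself a meiotic axis gene, in Nef-sp+/- against 96.8% and 96.8% in Nef-sp-/- testes. In contrast to these large shares, *Rec8* made up 41.0% and 36.9% of *Rec8* plus *Rad21*, the kleisin of somatic cohesin, in Nef-sp+/- against 34.3% and 34.3% in Nef-sp-/- testes. *Rad21l*, also chosen for this sum, was not analysed here, so the share does not cover all kleisins.

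The share of *Rec8* was lower in both Nef-sp-/- libraries, with a mean difference of −4.63 percentage points. Those of *Stag3* and *Hormad1* were higher in both, by 0.445 and 0.331 points, and that of *Smc1b* overlapped. For comparison, exon counts were lower in both Nef-sp-/- libraries for 18.1% of all tested genes and higher for 16.4%. No such rate was computed for shares. The share of *Rec8* uses the same *Rec8* counts as its fold change and is not a separate observation. With 2 libraries against 2, the exact two-sided permutation test cannot give less than 0.333, which was its p for *Rec8*, *Stag3* and *Hormad1* (adjusted p = 0.444 over 4 shares). The share of *Rec8* reflects both of its terms, as *Rad21* had a log2 fold change of 0.06 (SE 0.065) beside −0.22 for *Rec8*. No paralog was called by edgeR's test, with log2 fold changes of −0.03 for *Smc1a*, −0.06 for *Stag1*, −0.09 for *Stag2* and −0.14 for *Hormad2*.

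**Figure D4:**
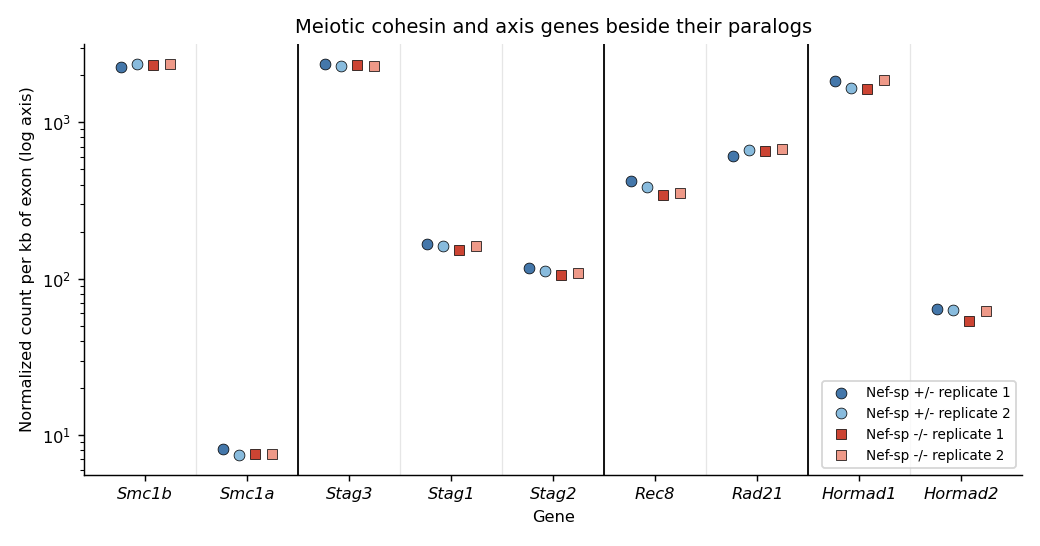
Normalized counts per kb of exon on a log axis for *Smc1b*, *Stag3*, *Rec8* and *Hormad1* and their paralogs, with 1 point per library and lines between the families. *Smc1b*, *Stag3* and *Hormad1* stand above their paralogs, while *Rec8* lies below *Rad21* in all 4 libraries.

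Intron sense reads, which can come from unspliced RNA, were examined for the 8 genes with such reads. In the fit of intron counts, 7 genes passed the filter, and 0 were called by edgeR's test or by DESeq2. None had an unadjusted p below 0.05, against 2.35% of 3403 tested genes, and 0.0294% of those passed the adjusted threshold. Of the 7 genes, 3 had a log2 fold change above 0 and 4 below, with a median of −0.07 against 0.01 over all genes. Intron counts of *Sycp3* were 71.7 and 68.4 in Nef-sp+/- against 57.2 and 57.2 in Nef-sp-/- libraries, with a log2 fold change of −0.29 (SE 0.209, −0.72 to 0.15). Both Nef-sp-/- libraries were lower, as for 14.5% of all genes. *Stag3* had 93.0 and 99.3 intron counts in Nef-sp+/- against 100 and 105.6 in Nef-sp-/- libraries, with a log2 fold change of 0.09 (SE 0.181, −0.28 to 0.47). Both Nef-sp-/- libraries were higher, as for 13.5% of all genes, by less than the SE.

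The other genes overlapped between genotypes in their intron counts. *Sycp2*, which had by far the most, had 1341, 1097, 1073 and 1384, and its log2 fold change was 0.01 (SE 0.151). The change was 0.19 (SE 0.218) for *Sycp1*, −0.07 (SE 0.226) for *Hormad1*, −0.40 (SE 0.355) for *Syce2* and −0.10 (SE 0.46) for *Smc1b*. *Syce2* and *Smc1b* had between 8.33 and 31.6 counts per library, and their intervals were wide. With any 1 library omitted, the change ranged from −0.75 to 0.25 for *Syce2*, from −0.48 to 0.17 for *Smc1b*, from −0.39 to 0.18 for *Hormad1* and from −0.18 to 0.17 for *Sycp2*. These genes thus had no stable direction in introns. *Sycp1*, *Sycp3* and *Stag3* kept theirs, with *Sycp1* between 0.03 and 0.31. *Rec8* had raw intron counts of 2, 4, 2 and 2, too few for a test, so that the lower exon counts of *Rec8* could not be compared with its introns.

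The intron share of all sense reads ranged widely between the genes. For *Sycp2* it was 10.8% and 9.18% in Nef-sp+/- against 8.53% and 11.5% in Nef-sp-/- testes, and 87.6% of 6127 genes had a smaller share. At the other end, *Smc1b* had 0.163% and 0.0958% in Nef-sp+/- against 0.0865% and 0.148% in Nef-sp-/- testes, with 6.02% of genes below it and a median over all genes of 1.33%. Per kb of intron, *Sycp2* also stood highest with 85.9 raw reads summed over the libraries, while the other 7 genes had between 0.712 and 20.7. *Hormad1* (1.70% to 2.43%), *Sycp3* (1.71% to 2.13%), *Syce2* (1.06% to 1.72%) and *Sycp1* (0.875% to 1.24%) lay near the median, and *Stag3* (0.699% to 0.856%) and *Rec8* (0.198% to 0.263%) below it. The share of *Sycp3* was lower and that of *Sycp1* higher in both Nef-sp-/- libraries, each with the smallest possible exact permutation p of 0.333 (adjusted p = 1 over 8 genes). For comparison, intron counts were lower in both Nef-sp-/- libraries for 14.5% of tested genes and higher for 13.5%.

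**Figure D5:**
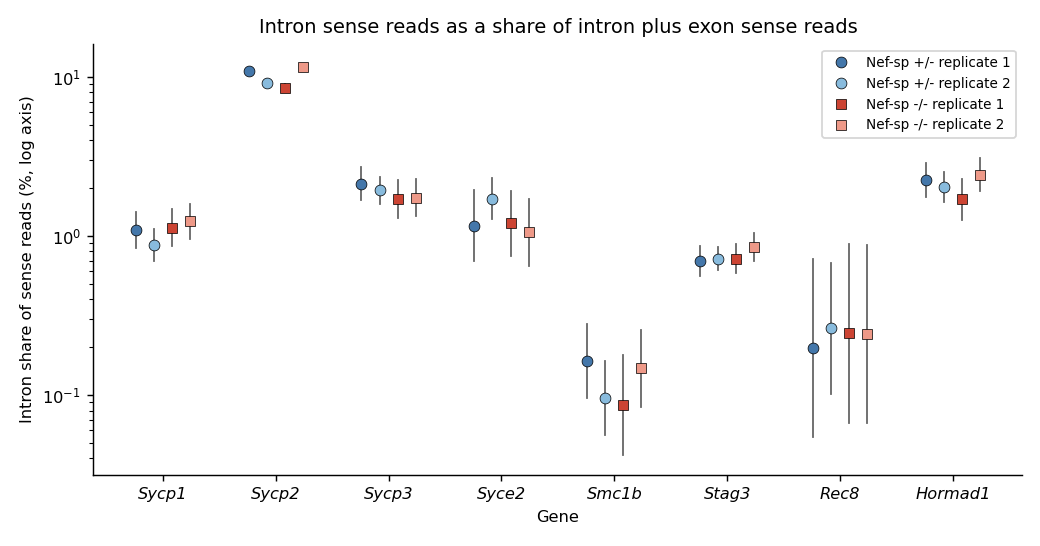
Intron sense reads as a percentage of intron plus exon sense reads on a log axis, with 1 point per library and 95% Wilson intervals (bars) that cover counting error only. *Sycp2* stands highest in every library (8.53% to 11.5%), and *Smc1b* and *Rec8* stand lowest.

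Antisense reads were few for most of the genes. *Sycp3* had raw antisense counts of 55, 88, 49 and 61 in exons and 212, 396, 265 and 220 in introns, with the highest in the most deeply sequenced library, Nef-sp+/- replicate 2. In mm9, *Sycp3* lies entirely within the span of *Chpt1* (chromosome 10, 87915490 to 87966818), a gene for phospholipid synthesis on the opposite strand. The exons of both genes share 660 bases, of 1264 merged exon bases in *Sycp3*. *Chpt1* had between 1990 and 3920 exon sense reads per library, but 6, 8, 2 and 4 intron sense reads. Whether the antisense reads of *Sycp3* came from *Chpt1* was not tested. Antisense reads of *Syce2*, which overlaps *Gcdh* on the opposite strand without shared exon bases, were 14, 22, 17 and 9 in introns. *Sycp1* had between 5 and 7 antisense reads in exons and between 4 and 15 in introns, and *Smc1b* had between 0 and 3 in introns.

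Other genes of the pathway were examined in the same fit of exon counts. Of 9 further genes for synapsis and the central element, 5 were tested, with 2 log2 fold changes above 0, 3 below and a median of −0.08. *Fkbp6*, needed for synapsis, had the highest level of these (342 ± 23.5 per kb) and a log2 fold change of −0.10 (SE 0.0829). The extremes were *Tex11* (0.14, SE 0.123) and *Hormad2* (−0.14, SE 0.122). Thus the differences among them were about as large as their errors.

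Of 18 cohesin subunits and regulators shared with mitosis, 16 were tested, with 9 log2 fold changes above 0, 7 below and a median of 0.01. The cohesin loader *Nipbl* had the highest level (2109 ± 95.7 per kb), between those of *Stag3* and *Sycp2*, and a log2 fold change of 0.05 (SE 0.0652). *Pds5a*, a regulator of cohesin release, had the largest positive change (0.12, SE 0.0742), and *Stag2* the largest negative one (−0.09, SE 0.0671). *Sgol1*, a protector of centromeric cohesin, was below the filter with counts of 9.21, 9.15, 12.7 and 10.6.

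Of 7 genes that attach meiotic telomeres to the nuclear envelope and move them, 4 were tested, with 2 log2 fold changes above 0, 2 below and a median of −0.02. *Ccdc155*, which encodes KASH5, had the highest level (539 ± 12.8 per kb) and a log2 fold change of 0.01 (SE 0.0639). *Ccdc79*, which encodes TERB1, had a change of 0.07 (SE 0.0803), and *Unc84a*, which encodes SUN1, one of −0.08 (SE 0.0634). None of these 25 genes passed an adjusted p of 0.05 in edgeR's test or in DESeq2, against 0.00932% of all genes in edgeR, and none had an unadjusted p below 0.05 in edgeR, against 4.8% of all genes. With so few calls over all genes, the absence of calls is not particular to the pathway.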

How the data were processed

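Per the labels and the methods, the authors used in-house tools to place reads on mm9, discarded imperfect matches, and deposited the raw counts of each feature by annotation category and strand. The treatment of reads with several matches is not given in the sources used here. The authors also deposited a mean normalized signal per feature, and the log2 fold change and p-values of their own DESeq2 comparison of the genotypes. None of these columns was used.

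The raw counts were fitted with edgeR 4.0.16 in R 4.3.3 (TMM, expression filter with a minimum count of 10, quasi-likelihood test without covariates), separately for gene exon sense and gene intron sense features, with Benjamini-Hochberg adjustment within each category at 0.05. A normalized count is the raw count over the TMM-scaled library size, with these sizes scaled to a mean of 1. Shares were compared by exact two-sided permutation tests with scipy 1.17.1. Gene lengths came from GENCODE vM1 on mm9, promoters from RefSeq, and figures from matplotlib 3.10.9. The test was checked on simulated data. It called 13 of 49 changes of 0.3 on the log2 scale, 38 of 50 of 0.5, 44 of 49 of 0.75 and 44 of 48 of 1. It also called 14 of 10450 features without a change, a larger share of all its calls than the nominal 0.05. Most changes of 0.3 were thus missed. The simulated data held many changed genes, whereas 1 gene was called in the exon data. The adjusted threshold is stricter where few genes change, so these rates do not carry over to a single changed gene here.

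Named were all 10 listed genes, *Nef-sp*, the paralogs, in each pathway list the gene of highest level and those with the largest changes, and the 3 genes nearest to the mean pattern with at least 100 normalized counts (log2 pseudocount 0.5). The genes, lists and tests were chosen with earlier results of these data known. *Syce1* and pathway genes without an entry were not analysed here. Alternatives were the size factors of DESeq2, the library size of all categories, no filter, 10 counts in every library, DESeq2 1.42.0 without a prior, a single fit over all categories, a replicate block, each library left out, and other gene lengths.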

Additional observations from a re-analysis of the deposited data

How the results depend on the processing

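With all 4 libraries, 0 of the 9 genes passed in exons under the 7 alternatives, and the median log2 fold change stayed between −0.03 and −0.00. With any 1 library omitted, the number of genes called ranged from 0 to 1, the median from −0.07 to 0.04, the number of pathway genes called from 0 to 0 and the number of genes called in introns from 0 to 0. The remaining sample of a genotype was then assumed to vary like the other genotype. The gene called was *Syce2*, without Nef-sp+/- replicate 2. Over all gene exon sense features, 1 was called with all libraries, 2 by DESeq2, 252 without Nef-sp+/- replicate 2 and 41 without Nef-sp+/- replicate 1, and the cause was not tested. *Rec8* kept its direction in all of these fits, and with all libraries its log2 fold change lay between −0.24 and −0.21 (smallest adjusted p 0.640 in edgeR, with the library size of all categories). The labels do not say what the replicate numbers share, and libraries with the same number deviated from their group means with r of −0.08 in exons and −0.14 in introns, so they were not treated as pairs. With the replicate block, 0 of the 9 genes and 0 of the pathway genes were called, the median was −0.01 and *Rec8* had −0.22 (adjusted p 0.997). A block with crossed numbers, chosen after seeing the data, called 2 intron features and 0 of the 7 genes. The depth limits *Tex12* in exons and *Rec8*, *Smc1b* and *Syce2* in introns.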
